A study of Oryza sativa with 6 samples.

Results

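The WRKY transcription factors described here are the 97 genes, of 36960 features in the deposited count table, whose gene symbol is WRKY or OsWRKY followed by a number. They were taken by name alone, though the family was chosen with earlier results of these data known. Of the 97 genes, 81 had enough reads to be tested for a difference between groups, among 25531 features tested in all. The samples were roots of rice (Oryza sativa) grown in nutrient solution with nitrate at 2.5 mM and no fungal partner: 3 libraries of the mutant line mads61-3 and 3 libraries of wild type (WT). OsMADS61 encodes a MADS-box transcription factor, and the study asked how it acts on nitrate transport in roots without mycorrhiza. Neither the kind of mutation in mads61-3 nor the age of the plants is stated in the sources used here. The labels do not tie replicates to separate tanks, so a p-value here covers the spread of these libraries alone, and that spread may be technical.

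WRKY proteins are plant transcription factors named after the amino acids at the start of their DNA-binding domain, which recognises W-box sequences in promoters. In rice many of them are induced by pathogens, wounding, salicylate or jasmonate, some act as activators of defence and others as repressors, and MAP kinases and VQ-motif proteins are known partners of the family. Several members also act in phosphate supply, gibberellin and abscisic acid responses or senescence.

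Library totals ran from 27060698 to 34179150 reads in mads61-3 and from 24145708 to 27338562 in WT, so 3 reads in a library stood for 0.0875 to 0.131 CPM (counts scaled by TMM library sizes). OsMADS61 (Os04g0461300, chromosome 4) had 6.24, 2.41 and 4.63 CPM in mads61-3 replicates 1 to 3, against 552, 573 and 2.38 CPM in the libraries labelled WT replicates 1 to 3. The library labelled WT replicate 3 thus held as little OsMADS61 RNA as the mutants and goes against its label, and several results that rest on it are given with and without it. The 4 root markers were read in all 6 libraries, with a summed level of 3021 to 7092 CPM in mads61-3 and 1660 to 3123 CPM in WT. That sum hides unlike markers: the log2 fold change (mads61-3 over WT) was 1.45 for LSI1, 1.70 for LSI2, -0.52 for Os04g0684300 and -2.56 for RCc3. RCc3 had 68.5, 77.0 and 56.0 CPM in mads61-3 and 28.5, 216 and 940 CPM in WT, and its log2 fold change was -0.86 without the library labelled WT replicate 3. The 11 green shoot markers (Rubisco small subunits and light-harvesting proteins) summed to 41.2, 298 and 156 CPM in mads61-3 and to 37.9, 48.8 and 22.7 CPM in WT, and their part in the WRKY results was not tested. In bulk RNA of this kind, fewer cells of one type and less RNA per cell cannot be told apart.

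Summed over the 97 genes, WRKY reads took a smaller share of all reads in mads61-3 roots, 0.16%, 0.139% and 0.158% in the 3 libraries, against 0.276%, 0.182% and 0.185% in WT. The groups did not overlap in this share, and WT replicate 1 stood above the other libraries. Genes with many reads weigh most in this sum. Gene by gene, the log2 fold change was below 0 in 46 of the 81 tested (56.8%, against 52.8% of all tested features). Levels between genes were compared in FPKM, fragments scaled to gene length and library depth. Of the 97 genes, 31 averaged 10 FPKM or more over the 6 libraries, 39 averaged 1 to 10 FPKM and 27 averaged less than 1 FPKM. No read was counted in any library for 5 genes (OsWRKY34, OsWRKY36, OsWRKY50, OsWRKY56 and OsWRKY80), where 3 reads per library is the limit a count of 0 allows. By mean FPKM over all libraries OsWRKY68 was first with 72.9 ± 7.82 FPKM in mads61-3 and 94.8 ± 27.3 FPKM in WT (SD, n = 3 each). OsWRKY121 followed with 69.2 ± 8.06 FPKM in mads61-3 and 89.8 ± 40.7 FPKM in WT, and OsWRKY94 with 51.0 ± 8.00 FPKM in mads61-3 and 81.9 ± 30.6 FPKM in WT. These neighbours in the order lay within each other's spread. WRKY53, next by its overall mean, had 19.2 ± 0.894 FPKM in mads61-3 and 93.8 ± 44.8 FPKM in WT, so that its WT level was close to that of OsWRKY68 and its mutant level was not. WRKY13 came after it with 48.1 ± 4.47 FPKM in mads61-3 and 59.5 ± 11.1 FPKM in WT, then OsWRKY55 with 55.4 ± 10.998 FPKM in mads61-3 and 50.4 ± 10.6 FPKM in WT.

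In mads61-3 roots 4 WRKY genes fell: WRKY71, OsWRKY21, OsWRKY69 and WRKY74, by a log2 fold change (mads61-3 over WT, as throughout) of -4.75, -4.74, -4.01 and -2.37. By edgeR's quasi-likelihood test at an adjusted p under 0.05 these were 4 of 81 genes lower (4.94%), where 0.924% of all tested features were called lower. In both directions together 1.25% of features were called. No WRKY gene was called higher (0 of 81, against 0.325% of all tested features), though at an unadjusted p under 0.05 12 genes were higher (7.86% of all features were) and 22 lower (8.68% of all features were). DESeq2 called OsWRKY66, OsWRKY32, OsWRKY58, OsWRKY86 and OsWRKY118 higher, and limma-voom called 0 higher (0.247% of all features) and 3 lower (0.638%). With DESeq2 17 were lower (21%, against 5.37% of all features) and the 5 higher made up 6.17%, against 4.37% of all features. In 19 of the 81 tested genes (23.5%) all mads61-3 libraries lay below all libraries labelled WT, against 11.3% of all tested features, and in 13 (16%) they lay above, against 11.4% of all, or 32 in all against 22.7% of features. Without the library labelled WT replicate 3 these were 30 genes lower (37%, against 18.7% of all tested features) and 15 higher (18.5%, against 18.5%). A log2 fold change of -1 or less was fitted for 25 genes (30.9%, against 9.18% of all features) and one of 1 or more for 10 (12.3%, against 8.7%). Limma on log2(FPKM + 1) called 5 WRKY genes lower (1.15% of all features) and on log2(FPKM + 0.1) 8 (1.35%), scales that shrink the change of low genes.

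**Figure D1:**
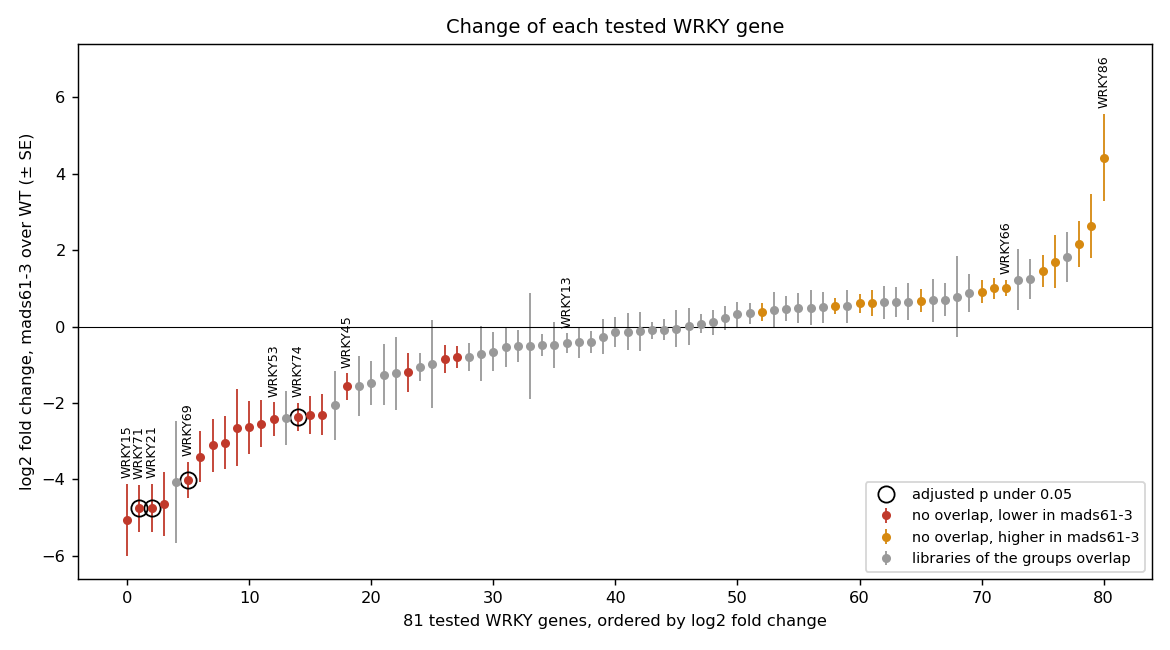
Log2 fold change (mads61-3 over WT, y axis) with its standard error for each of the 81 tested WRKY genes, ordered along the x axis. Red points are the 19 genes with all mads61-3 libraries below all libraries labelled WT, orange the 13 with all of them above, and black rings mark the 4 genes called at an adjusted p under 0.05.

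The median log2 fold change of the tested WRKY genes was -0.13, against -0.04 for all tested features, and the value was below 0 in 46 of them (56.8%, against 52.8%). Leaving out 1 library moved the WRKY median: it was -0.01, -0.37 and -0.28 without WT replicate 1, 2 or 3, and -0.18, -0.26 and -0.38 without mads61-3 replicate 1, 2 or 3, while the median of all features lay between -0.07 and 0.01. The quartiles were -1.48 and 0.61 for the WRKY genes, against -0.43 and 0.34 for all tested features. By level, the 31 genes at 10 FPKM or more had a median of -0.40 with 3 called and 8 lower without overlap, and the 39 genes at 1 to 10 FPKM a median of 0.00 with 1 called, 9 lower and 9 higher without overlap (11.3% and 11.4% of all features were lower and higher without overlap). Among the 27 genes under 1 FPKM, 11 were tested, 0 were called, and 2 were lower and 2 higher without overlap.

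**Figure D2:**
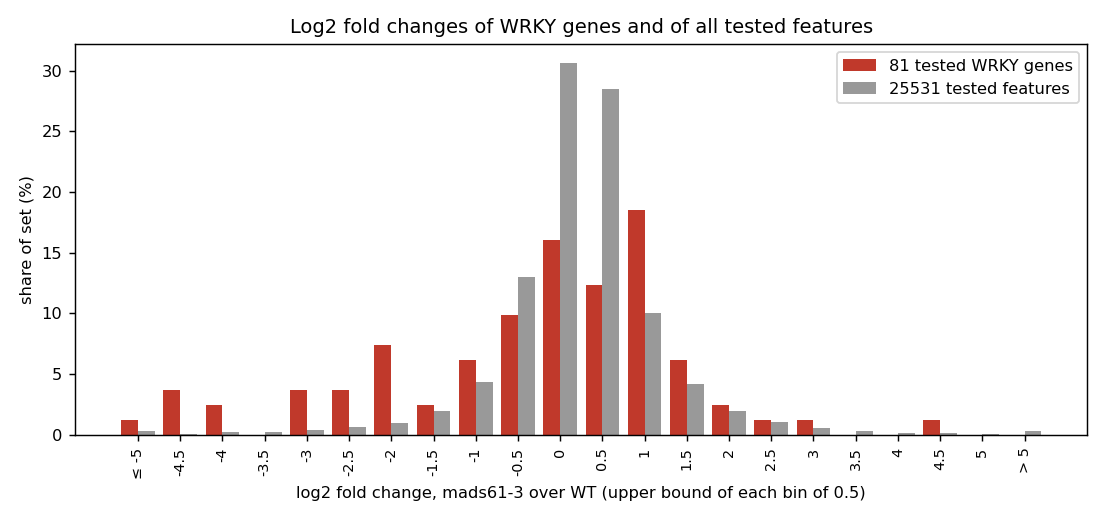
Share (%) of the 81 tested WRKY genes (red) and of the 25531 tested features (grey) in bins of log2 fold change, mads61-3 over WT, 0.5 wide. The WRKY genes have more of their number below -1 (30.9% at -1 or less, against 9.18% of all features) and fewer near 0.

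OsWRKY69 (Os08g0386200, chromosome 8) had 2.71, 2.08 and 3.71 CPM in mads61-3 and 72.4, 25.2 and 39.5 CPM in WT, replicates 1 to 3 in each case as in all lists below. The lowest WT library stood well above the highest mutant one, and the change on the log2 scale was -4.01 (SE 0.47, adjusted p = 0.0215). WRKY71 (Os02g0181300, chromosome 2), a repressor of gibberellin signalling in the aleurone and a member of the group IIa regulators of defence, had 5.39, 5.02 and 4.59 CPM in mads61-3 and 203, 41.7 and 161 CPM in WT. Its log2 fold change was -4.75 (SE 0.61, adjusted p = 0.0254), with the mutants close together and WT replicate 2 far below the other libraries labelled WT. OsWRKY21 (Os01g0821600, chromosome 1), which with OsWRKY108 promotes phosphate accumulation in rice, had 0.262, 0.627 and 0.22 CPM in mads61-3 and 5.65, 8.28 and 16.2 CPM in WT. Here the library labelled WT replicate 3 was the highest, and the log2 fold change was -4.74 (SE 0.63, adjusted p = 0.0283), or -4.22 (adjusted p = 0.0235) without that library. WRKY74 (Os09g0334500, chromosome 9), a positive regulator of the response to phosphate starvation, had 27.8, 22.8 and 36.0 CPM in mads61-3 and 225, 98.9 and 124 CPM in WT. The groups were again well apart, at -2.37 on the log2 scale (SE 0.37, adjusted p = 0.0416). All 4 were called without the library labelled WT replicate 3, where edgeR called 6 WRKY genes lower (7.41%, against 2.02% of features), adding OsWRKY67 (log2 -3.73, adjusted p = 0.0413) and OsWRKY61 (log2 -1.36, adjusted p = 0.0352).

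The calls changed with the library left out, though edgeR called OsWRKY69 and WRKY71 whichever WT library was left out. Without WT replicate 1 edgeR called 6 WRKY genes lower (7.41%, against 1.65% of features) and 1 higher (OsWRKY41, 0.865% of features were higher; log2 1.25, adjusted p = 0.04995). Without WT replicate 2 it called 6 lower (7.14% of 84, against 0.381% of features): WRKY71, OsWRKY69, OsWRKY15, OsWRKY24, WRKY53 and WRKY28. OsWRKY21 and WRKY74 then had an adjusted p of 0.0663 and 0.0583. Without mads61-3 replicate 1, 2 or 3 it called 0 WRKY genes, with 19, 21 and 20 of 84 lower and 6, 13 and 7 higher at an unadjusted p under 0.05 (5.19%, 7.33% and 5.39% of features lower and 4.88%, 7.7% and 4.56% higher). Other tools were not applied to these subsets. The adjusted p of OsWRKY69 was then 0.146, 0.0743 and 0.115, that of WRKY71 0.157, 0.0909 and 0.153, that of OsWRKY21 0.173, 0.0548 and 0.152, and that of WRKY74 0.193, 0.114 and 0.175. Of all features 0, 14 (0.0534%) and 0 were called in the same subsets.

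**Figure D3:**
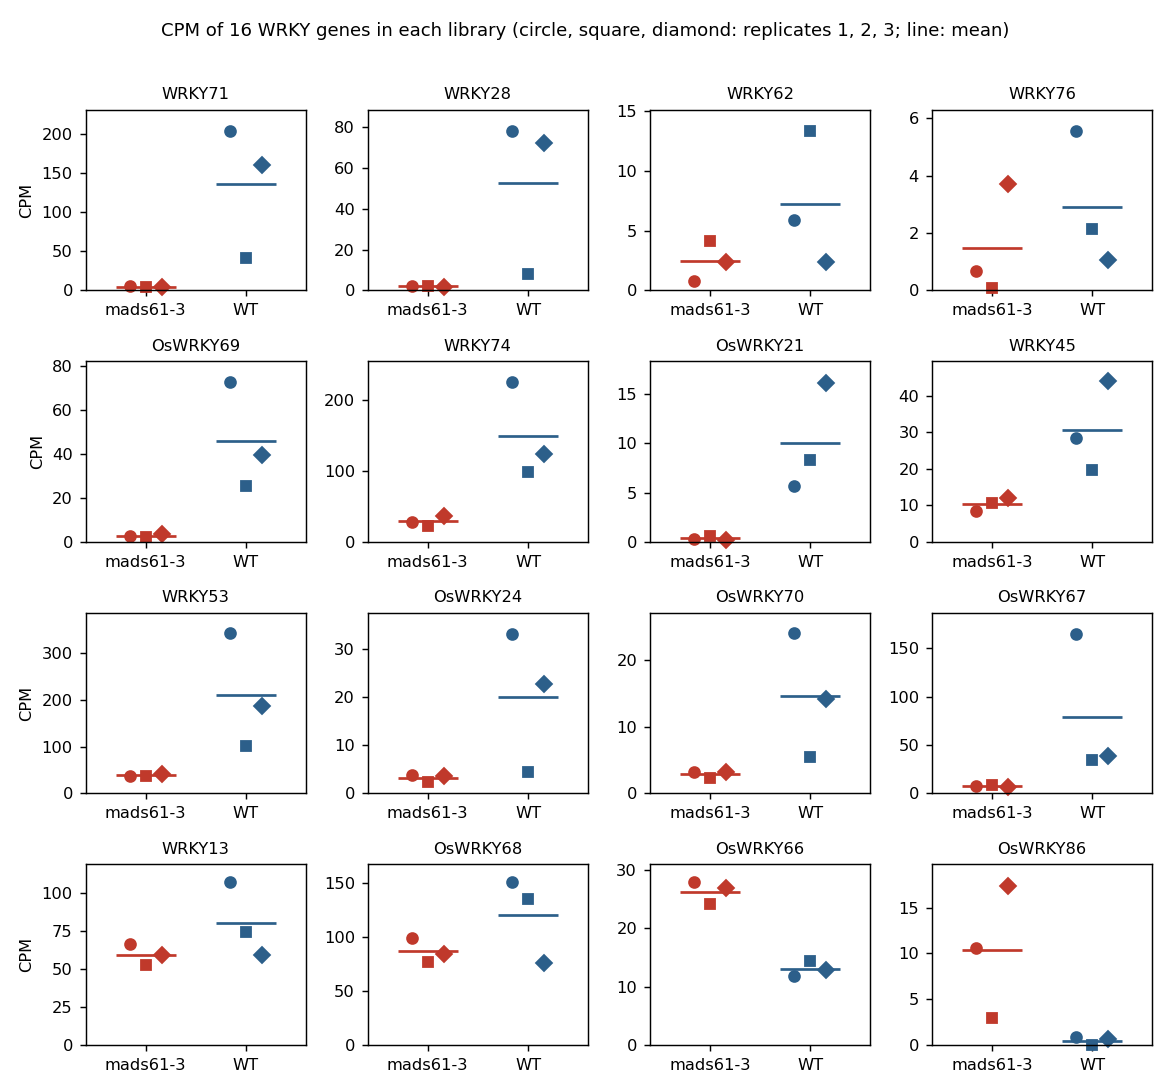
CPM (y axis, from 0) of 16 WRKY genes in each mads61-3 library (red) and each library labelled WT (blue), with circles, squares and diamonds for replicates 1, 2 and 3 and a line at the mean. WRKY71, OsWRKY69, WRKY74 and OsWRKY21 have all mutant libraries below all libraries labelled WT, WRKY13 and OsWRKY68 overlap, and OsWRKY66 and OsWRKY86 are higher in mads61-3.

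Among the group IIa genes, which are known in rice mostly as repressors of defence, WRKY28 stood beside WRKY71. WRKY28 (Os06g0649000, chromosome 6) had 2.16, 2.38 and 1.799 CPM in mads61-3 and 78.0, 7.96 and 71.9 CPM in WT. Its mutant libraries differed little while WT replicate 2 lay far below the other libraries labelled WT, and the log2 fold change of -4.64 (SE 0.84) missed the threshold (adjusted p = 0.0566). Without WT replicate 2 it was -5.15 and was called (adjusted p = 0.00797). The neighbouring genes WRKY62 and WRKY76, which repress defence and phytoalexin genes in leaves, overlapped between groups. WRKY62 had 0.816, 4.13 and 2.39 CPM in mads61-3 and 5.87, 13.3 and 2.38 CPM in WT (log2 -1.56, SE 0.78, adjusted p = 0.379). WRKY76 had 0.671, 0.0990 and 3.71 CPM in mads61-3 and 5.56, 2.14 and 1.07 CPM in WT (log2 -0.97, SE 1.15, adjusted p = 0.733).

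Described here are 3 genes with a known part in phosphate supply, all low in mads61-3. WRKY74 and OsWRKY21 are among the called genes. Besides WRKY74 and OsWRKY21, OsWRKY108 (Os01g0821300), the partner of OsWRKY21 and 1 of its neighbours on chromosome 1, had 3, 0 and 7 reads in mads61-3 and 69, 7 and 130 reads in WT. It was left out of the test by the filter on low counts, and mads61-3 replicate 3 had as many reads as WT replicate 2. The ratio of depth-scaled totals, mads61-3 over WT, was 0.0403 (95% counting interval 0.019 to 0.0756), an interval that covers counting error and not the spread between libraries. Most of the WT reads lay in the library labelled WT replicate 3, and the ratio was not computed without it. The choice of these 3 genes rests on background knowledge and was made with earlier results of these data known. OsWRKY108 was outside the rules for named genes, and no test of phosphate genes as a set was made.

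A further 7 genes known mainly as regulators of defence were grouped here by background knowledge and not from a list. OsWRKY67 was named only for its large fall, the others for a known role. Of these edgeR called 0 and DESeq2 called 5, all with a negative log2 fold change, where DESeq2 called 5.37% of all features lower. Those 5 also had an unadjusted p under 0.05 in edgeR (8.68% of all features were lower at that level), while WRKY13 and OsWRKY30 overlapped between groups. WRKY6, also an activator of defence genes, had a positive log2 fold change and is given with the higher genes. The grouping was made with earlier results of these data known, so these counts follow in part from the choice of genes. WRKY53 (Os05g0343400, chromosome 5), a target of MAP kinases in the response to microbial patterns and a factor in brassinosteroid signalling, had 38.0, 37.8 and 41.7 CPM in mads61-3 and 343, 101 and 188 CPM in WT. The mutant libraries lay together below all of WT, at -2.43 on the log2 scale (SE 0.45, adjusted p = 0.0584), and the gene was called in DESeq2, in limma on both FPKM scales and without WT replicate 1 or 2 (adjusted p = 0.0362 and 0.047). OsWRKY67 (Os05g0183100), which promotes resistance to blast and bacterial blight, had 7.46, 8.72 and 6.35 CPM in mads61-3 and 165, 34.8 and 38.3 CPM in WT. WT replicate 1 stood apart from the others, and the log2 change was -3.40 (SE 0.67, adjusted p = 0.066), or -2.28 without WT replicate 1 (adjusted p = 0.0117). WRKY45 (Os05g0322900), the salicylate-pathway regulator of induced blast resistance, had 8.37, 10.7 and 12.04 CPM in mads61-3 and 28.3, 19.6 and 44.0 CPM in WT. Again no library overlapped, with a log2 change of -1.56 (SE 0.34, adjusted p = 0.0843).

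OsWRKY70 and OsWRKY24 are near relatives of WRKY53, and OsWRKY70 acts in the response to chewing insects. OsWRKY70 (Os05g0474800) had 3.18, 2.38 and 3.27 CPM in mads61-3 and 23.99, 5.50 and 14.2 CPM in WT (log2 -2.30, SE 0.54, adjusted p = 0.0973). OsWRKY24 (Os01g0826400) had 3.76, 2.41 and 3.52 CPM in mads61-3 and 33.1, 4.40 and 22.6 CPM in WT (log2 -2.63, SE 0.69, adjusted p = 0.126). In both, WT replicate 2 came close to the mutants, and OsWRKY24 was called without it (log2 -3.10, adjusted p = 0.0404). WRKY13, a regulator of the balance of salicylate and jasmonate defence, overlapped between groups at 66.1, 52.8 and 59.1 CPM in mads61-3 and 107, 74.6 and 59.1 CPM in WT (log2 -0.44, SE 0.26, adjusted p = 0.466). OsWRKY30, another MAP kinase target, had 15.9, 17.8 and 14.1 CPM in mads61-3 and 11.6, 16.3 and 9.61 CPM in WT (log2 0.35, SE 0.27, adjusted p = 0.582).

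Another 5 genes, OsWRKY15, OsWRKY79, OsWRKY12, OsWRKY48 and OsWRKY7, were picked for a strongly negative log2 fold change, and edgeR called 0 of them. All 5 had an unadjusted p under 0.05 and were called by DESeq2, which follows in part from that choice. Of all features 8.68% were lower at that unadjusted p and 5.37% were called lower by DESeq2. OsWRKY15 (Os01g0656400) had 0.204, 0.099 and 0.11 CPM in mads61-3 and 9.50, 0.99 and 3.88 CPM in WT (log2 -5.06, SE 0.94, adjusted p = 0.059). It had no overlap and was called without WT replicate 2 (adjusted p = 0.044). OsWRKY79 had 0.321, 0.693 and 0.844 CPM in mads61-3 and 10.2, 2.65 and 3.13 CPM in WT (log2 -3.10, adjusted p = 0.0896). OsWRKY12 had 1.69, 0.627 and 2.39 CPM in mads61-3 and 23.6, 8.83 and 6.33 CPM in WT (log2 -3.04, adjusted p = 0.0924). In both, WT replicate 1 was the highest library and the groups did not overlap. OsWRKY48 had 0.146, 0.66 and 0.0734 CPM in mads61-3 and 0.131, 1.43 and 13.5 CPM in WT. Its log2 change of -4.07 (SE 1.59, adjusted p = 0.27) rested on the library labelled WT replicate 3 and was -1.40 without it (adjusted p = 0.613). OsWRKY7 (Os05g0537100), named after its values were seen, was the most abundant of the 5, with 5.45, 6.54 and 4.33 CPM in mads61-3 and 53.01, 6.30 and 25.98 CPM in WT. WT replicate 2 lay within the mutant range, and the log2 change was -2.38 (SE 0.70, adjusted p = 0.159, and 0.00722 in DESeq2).

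A further 2 genes outside the test also had most of their reads in WT. WRKY42, which promotes leaf senescence, had 0, 0 and 3 reads in mads61-3 and 133, 5 and 35 reads in WT, a ratio of depth-scaled totals of 0.0144 (95% counting interval 0.00294 to 0.0428). OsWRKY40 (Os11g0117500), picked here after its values were seen, had 9, 4 and 2 reads in mads61-3 and 11, 2 and 95 reads in WT. Nearly all of its WT reads lay in the library labelled WT replicate 3, which was also the single library with reads of OsWRKY22, at 17. Other genes outside the test went the other way. OsWRKY27 had 16, 5 and 9 reads in mads61-3 and 1, 5 and 2 reads in WT, a ratio of 3.11 (95% counting interval 1.39 to 7.86). OsWRKY43, OsWRKY104, OsWRKY2 and OsWRKY54 also had more reads in mads61-3, with counting intervals that included equal levels.

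None of the WRKY genes with a higher level in mads61-3 passed edgeR's test. OsWRKY86 (Os06g0105100, chromosome 6) had the highest log2 fold change, with 10.6, 2.97 and 17.4 CPM in mads61-3 and 0.832, 0 and 0.605 CPM in WT. Its groups did not overlap and mads61-3 replicate 2 was the lowest mutant library, at 4.42 on the log2 scale (SE 1.14, adjusted p = 0.122). OsWRKY66 (Os02g0698800, chromosome 2) had the smallest adjusted p among the higher genes. Its libraries held 27.8, 24.1 and 26.9 CPM in mads61-3 and 11.8, 14.4 and 12.8 CPM in WT, which is tight in both groups (log2 1.02, SE 0.20, adjusted p = 0.066, and 6.35e-05 in DESeq2). OsWRKY32 had 37.9, 15.1 and 37.9 CPM in mads61-3 and 8.76, 14.4 and 9.93 CPM in WT (log2 1.46, SE 0.41, adjusted p = 0.144). OsWRKY118 had 29.6, 26.0 and 42.2 CPM in mads61-3 and 12.5, 17.4 and 18.8 CPM in WT (log2 1.00, SE 0.27, adjusted p = 0.137). OsWRKY41 had 41.2, 31.4 and 36.4 CPM in mads61-3 and 27.1, 17.3 and 13.2 CPM in WT (log2 0.92, SE 0.30, adjusted p = 0.197). These 3 genes did not overlap between groups, although mads61-3 replicate 2 came near WT for OsWRKY32.

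In several of the higher genes mads61-3 replicate 2 lay within or beside the WT range. OsWRKY73 had 24.1, 6.24 and 23.8 CPM in mads61-3 and 2.01, 6.65 and 6.58 CPM in WT (log2 1.82, adjusted p = 0.23). WRKY6, an activator of pathogenesis-related genes, had 12.2, 4.09 and 13.9 CPM in mads61-3 and 2.80, 5.94 and 3.95 CPM in WT (log2 1.25, adjusted p = 0.298). The groups of OsWRKY109 (log2 1.23), WRKY11 (log2 0.87), a gene linked to heat and drought tolerance, and OsWRKY16 (log2 0.70) overlapped too, with adjusted p of 0.508, 0.44 and 0.479. OsWRKY58 and OsWRKY31, named after their values were seen, averaged under 1 CPM over WT and did not overlap (log2 2.17 and 2.64, adjusted p = 0.141 and 0.188). The green shoot markers also differed between mutant libraries, and were highest in replicate 2; their part here was not tested.

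Some of the most abundant and some of the best known members gave no call and overlapped between groups, which does not show that their levels were alike. OsWRKY68 had 98.6, 76.7 and 84.0 CPM in mads61-3 and 151, 135 and 76.0 CPM in WT (log2 -0.48, SE 0.29, adjusted p = 0.477). OsWRKY121 stood at -0.51 on the log2 scale (SE 0.41, adjusted p = 0.596), OsWRKY94 one of -0.79 (SE 0.36, adjusted p = 0.339) and OsWRKY55 one of 0.08 (SE 0.25, adjusted p = 0.91). WRKY51, which acts with WRKY71 in gibberellin repression, had 34.3, 28.4 and 34.4 CPM in mads61-3 and 59.4, 38.1 and 30.2 CPM in WT. At -0.40 on the log2 scale (SE 0.28, adjusted p = 0.547) it lay far from WRKY71, and the difference between the 2 genes was not tested. OsWRKY72, linked to abscisic acid and jasmonate responses, stood at -0.65 (SE 0.52, adjusted p = 0.591), and OsWRKY23, linked to senescence and defence, one of 0.50 (SE 0.47, adjusted p = 0.66).

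The libraries labelled WT differed among themselves more than the mutants did. For 65 of the 81 tested WRKY genes (80.2%) the coefficient of variation was larger in WT than in mads61-3, against 75.8% of all tested features, with medians over the WRKY genes of 0.236 in mads61-3 and 0.489 in WT. A pattern within WT ran through the 19 genes that were lower in mads61-3 without overlap. WT replicate 1 was the highest WT library in 15 of them (78.9%, against 51.6% of the 2876 features that were lower without overlap), and WT replicate 2 was the lowest in 15 (78.9%, against 30.4%). The library labelled WT replicate 3, with its mutant-like OsMADS61 level, was the lowest in 3 (15.8%, against 45.2%). No test of these shares was made.

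**Figure D4:**
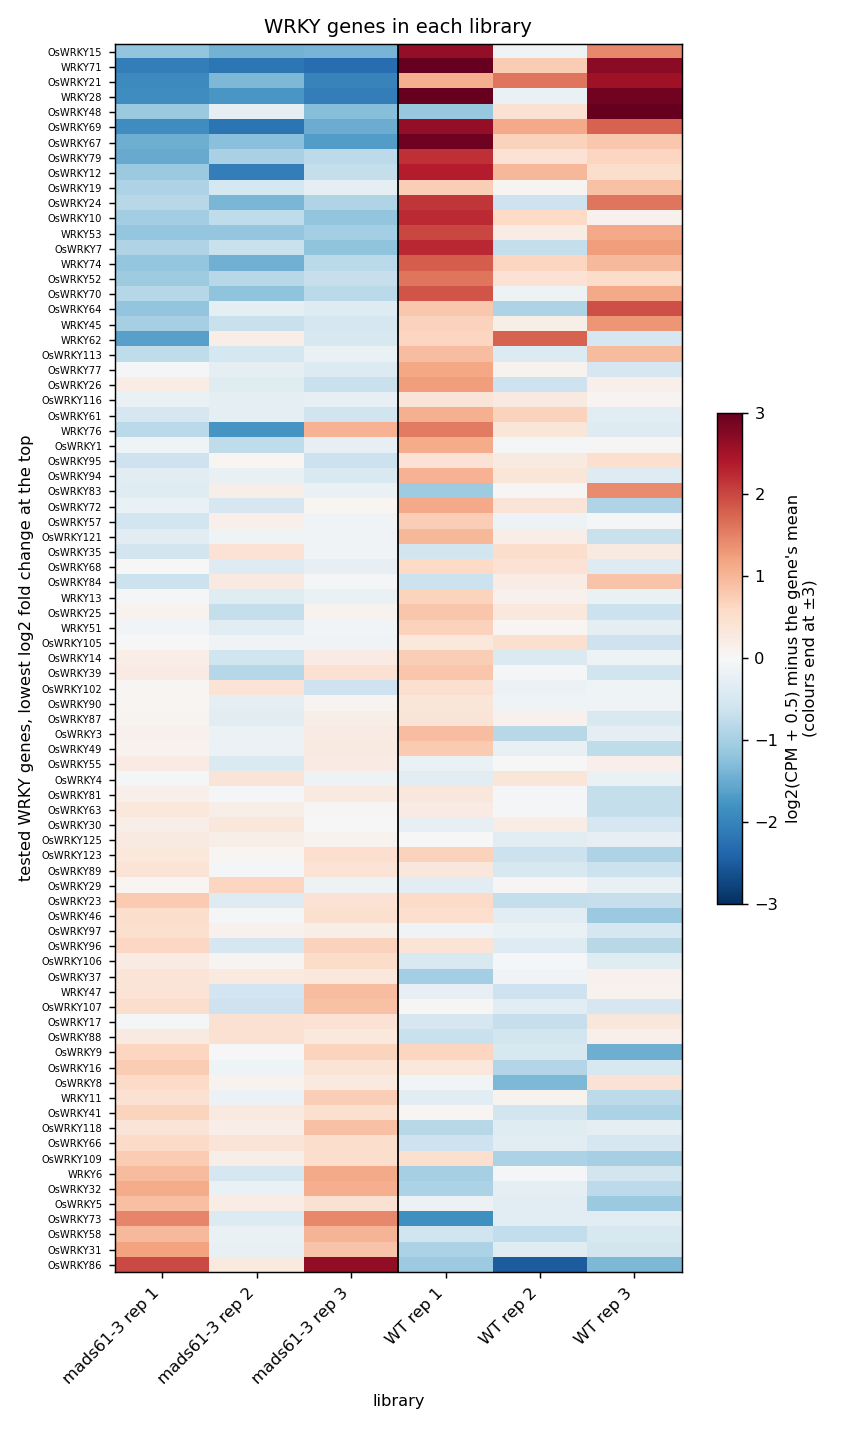
Each row is 1 of the 81 tested WRKY genes, ordered by log2 fold change with the lowest at the top, and each column a library, mads61-3 on the left. Colour is log2(CPM + 0.5) minus the gene's mean over the 6 libraries, red above and blue below. In most of the upper rows WT replicates 1 and 3 are red and WT replicate 2 is paler, and in most of the lowest rows mads61-3 replicates 1 and 3 are red and replicate 2 is paler.

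WRKY genes lie on all 12 chromosomes, from 1 gene on chromosome 10 to 22 on chromosome 1 and 17 on chromosome 5, going by the locus identifiers. Of the 19 genes lower without overlap, 7 were on chromosome 1 and 5 on chromosome 5. Many lie close together: 38 of the 97 fell into 14 groups in which successive WRKY loci had at most 10 other loci of the table between them. Of these 38 genes 29 were tested, with 7 lower and 5 higher without overlap, and of the 52 tested genes outside such groups 12 were lower and 8 higher. These were 24.1% lower and 17.2% higher within the groups and 23.1% and 15.4% outside them, against 11.3% and 11.4% of all features.

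Neighbours often had unlike values. OsWRKY10 (Os01g0186000), an activator of diterpenoid phytoalexin genes, had 1.90, 2.41 and 1.69 CPM in mads61-3 and 22.9, 7.01 and 4.91 CPM in WT (log2 -2.54, SE 0.62, adjusted p = 0.11). The adjoining OsWRKY107 had 73.4, 32.8 and 92.6 CPM in mads61-3 and 52.2, 40.5 and 35.2 CPM in WT (log2 0.64, SE 0.39, adjusted p = 0.473). OsWRKY12 lay beside WRKY11, at log2 fold changes of -3.04 and 0.87. On chromosome 11 OsWRKY52 had 0.671, 0.891 and 1.03 CPM in mads61-3 and 7.004, 2.81 and 3.13 CPM in WT (log2 -2.32, SE 0.49, adjusted p = 0.0768), while the next WRKY gene, OsWRKY46, stood at 0.50 (SE 0.42, adjusted p = 0.612). On chromosome 12 OsWRKY97 and OsWRKY95 had log2 fold changes of 0.53 and -0.80 (adjusted p = 0.264 and 0.226), each without overlap. In the group of OsWRKY21 on chromosome 1, OsWRKY116 was lower too (log2 -1.20, SE 0.51, adjusted p = 0.302), and OsWRKY105, OsWRKY106 and OsWRKY118 on chromosome 8 had log2 fold changes of -0.26, 0.61 and 1.00. Differences between neighbours were not tested. The ends of chromosomes 11 and 12 carry duplicated segments, so the split of reads between similar copies there is uncertain, as it is within groups of neighbouring copies.

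**Figure D5:**
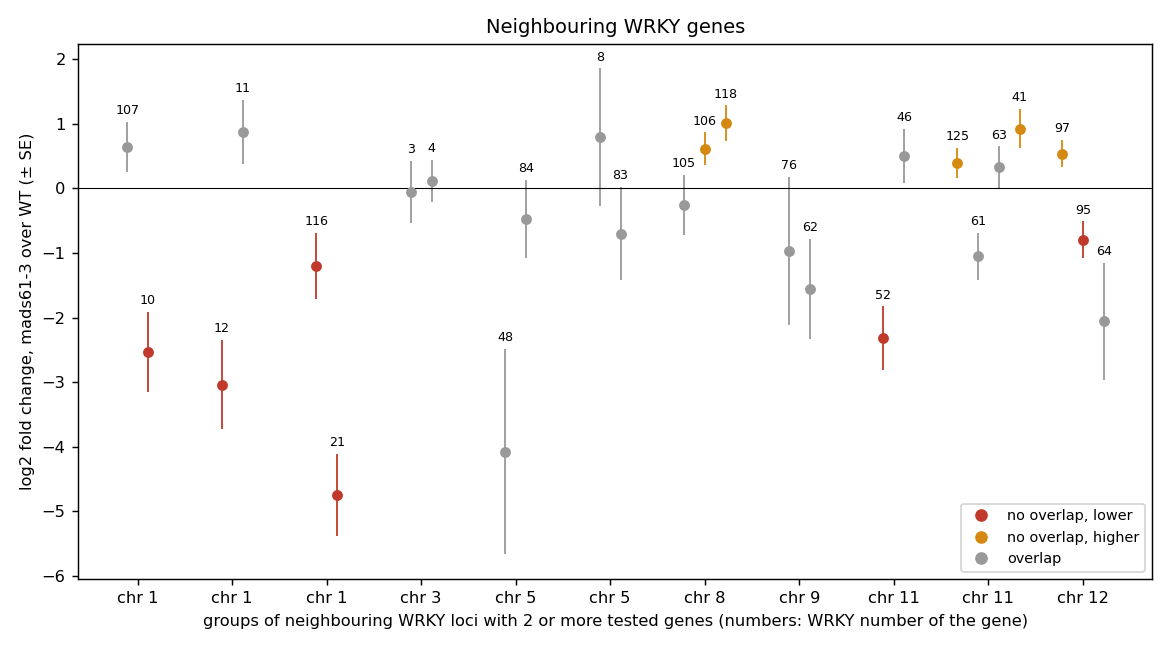
Log2 fold change (mads61-3 over WT, y axis) with standard error for tested WRKY genes in the groups of neighbouring loci with 2 or more tested genes, with the chromosome of each group on the x axis. Red points have all mads61-3 libraries below all libraries labelled WT, orange all above, grey overlap. OsWRKY10 and OsWRKY107, or OsWRKY12 and WRKY11, lie on opposite sides of 0 within a group.

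Of the VQ-motif genes, whose proteins bind WRKY proteins, 3 of 22 tested fell and 0 rose by edgeR, with 9 lower and 3 higher without overlap and a median log2 fold change of -0.44. Of all features 0.924% were called lower, and 11.3% were lower and 11.4% higher without overlap. DESeq2 called 9 VQ genes lower and 1 higher (5.37% and 4.37% of all features), and limma-voom 1 lower (0.638%). OsVQ1 had 0.35, 0.33 and 0.844 CPM in mads61-3 and 7.31, 12.3 and 8.26 CPM in WT (log2 -4.19, SE 0.51, adjusted p = 0.0228). OsVQ25 had 2.62, 2.18 and 2.46 CPM in mads61-3 and 39.0, 17.1 and 13.1 CPM in WT (log2 -3.25, SE 0.47, adjusted p = 0.0339), and OsVQ13 stood at -3.24 (SE 0.53, adjusted p = 0.0456). For all 3 the mutant libraries lay below every library labelled WT, and edgeR called 0 VQ genes without WT replicate 2 or without any 1 mads61-3 library, and 5 without the library labelled WT replicate 3.

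Of 18 MAP kinase and MAP kinase kinase genes edgeR called 0, DESeq2 1 lower and 1 higher (5.37% and 4.37% of all features) and limma-voom 0. At an unadjusted p under 0.05 1 was lower and 1 higher (8.68% and 7.86% of all features), and the median log2 fold change was -0.15, so these counts lay near the background. OsMPK20-4 and OsMPK14, the most abundant by CPM, had log2 fold changes of -0.36 and -0.26, and MAPK6 had one of -0.28 (adjusted p = 0.549). Of 3 receptors for chitin and flagellin edgeR called 0, DESeq2 1 lower and limma-voom 0, with 2 lower and 0 higher at an unadjusted p under 0.05 (8.68% and 7.86% of all features). CEBIP, the chitin-binding receptor, had 20.2, 23.7 and 17.4 CPM in mads61-3 and 31.6, 34.1 and 42.6 CPM in WT without overlap (log2 -0.82, SE 0.22, adjusted p = 0.131), while its co-receptor OsCERK1 overlapped (log2 0.01, adjusted p = 0.981).

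Among genes of salicylate and phytoalexin synthesis, which lie up- or downstream of several WRKY proteins, 2 rose (0.325% of all features did). In the salicylate and pathogenesis-related list 1 of 13 tested genes rose, ICS1, of salicylate synthesis, with 37.4, 20.6 and 30.3 CPM in mads61-3 and 5.08, 4.79 and 4.41 CPM in WT (log2 2.63, SE 0.29, adjusted p = 0.018). Leaving out WT replicate 2 (adjusted p = 0.0586) or any 1 mads61-3 library (adjusted p = 0.113, 0.0513 and 0.113) ended that call. NH1, the rice NPR1 through which salicylate acts beside WRKY45, overlapped (log2 -0.18, adjusted p = 0.777), and the list's median was 0.28. In that list 3 genes were higher and 0 lower without overlap (11.4% and 11.3% of all features). DESeq2 called the same 3 higher and 0 lower (4.37% and 5.37% of all features). Besides ICS1 they were OsPR4d and OsPR4b, at log2 2.47 and 1.87 (edgeR adjusted p = 0.0998 and 0.14). All 9 diterpenoid phytoalexin genes had a positive log2 fold change with a median of 2.70, 7 of them higher without overlap (11.4% of all features were), and 1 rose, the gene at Os04g0178400 (CYP99A3), with 26.2, 9.08 and 17.1 CPM in mads61-3 and 0.963, 2.30 and 0.818 CPM in WT (log2 3.68, SE 0.59, adjusted p = 0.0416). Leaving out any 1 of the 6 libraries ended that call, at an adjusted p of 0.0536, 0.0583 and 0.0525 without WT replicate 1, 2 or 3 and of 0.183, 0.0642 and 0.177 without mads61-3 replicate 1, 2 or 3, and so did limma-voom (adjusted p = 0.0623). DESeq2 called 5 of the 9 higher (4.37% of all features) and limma-voom 0 (0.247%). WRKY45 and OsWRKY10, known activators of this pathway, were lower without overlap (11.3% of all features were). DESeq2 called both lower (adjusted p = 0.00127 and 0.00115), as it did 5.37% of all features. The repressors WRKY62 and WRKY76 also had negative log2 fold changes, but overlapped and were not called by DESeq2 (adjusted p = 0.221 and 0.724). None of these 4 was called by edgeR. WRKY53, also set upstream of these genes when the list was fixed, was lower without overlap and not called by edgeR.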

How the data were processed

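Root mRNA of 6 rice libraries, 3 of mads61-3 and 3 of WT, was sequenced, with groups and replicate numbers from the labels. Columns named mads61 with a number were read as replicates of line mads61-3. The deposited read counts are whole, not normalised, and the deposited FPKM were scaled by the authors to length and depth. Submitters' processing notes name HISAT2 2.0.5, SAMtools 0.1.18, Picard 1.41, StringTie 1.3.3, CASAVA 1.8.2 and FastQC 0.11.9, per the labels, and give the human build GRCh38 for these rice loci. For the rice build, the counting program and strandedness the entry is: not given in the sources used here. No coordinates are therefore printed, and overlapping and antisense genes may share reads. Between the tables, deviations from each gene's mean correlated at 0.974 to 0.982 for the same column and at 0.663 or less for others, across genes.

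Counts were tested with edgeR 4.0.16 in R 4.3.3 (quasi-likelihood F-test, TMM, robust, default filter with minimum count 10 and minimum total 15, group as the only term, two-sided). Benjamini-Hochberg adjustment ran over all 25531 features kept. The SE of a log2 fold change is its size over the square root of F. DESeq2 1.42.0 and limma 3.58.1 were alternatives, all checked on simulated data except the fits on FPKM. A single value of 3 against 3 libraries cannot give an exact two-sided p below 0.1. Intervals cover counting error only.

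The members, lists and named genes were chosen with earlier results of these data known. Named were called members, the 10 largest rises and falls with a mean of at least 1 CPM, the 6 highest mean FPKM and the members found under 19 names with a known role, 36 in all. WRKY78, 1 of those names, had no row. Other members given in the text, such as OsWRKY10, OsWRKY107 and OsWRKY52, fall outside these rules. Of the other lists' loci, 1 (Os01g0382000, in the salicylate and pathogenesis-related list) was not analysed here. WRKY structural groups were not assigned, as protein sequences were not used here.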

Additional observations from a re-analysis of the deposited data

How the results depend on the processing

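Of 35 named WRKY genes tested under 13 alternative settings, 2 values changed sign, both of OsWRKY55, which was near 0: -0.00392 without WT replicate 1 and -0.0264 without mads61-3 replicate 3. Of the others 409 kept their sign and side of the threshold, 26 were newly past it and 18 no longer past it. The count of WRKY genes called was 4 in the main test, 22 with DESeq2, 8 with limma on log2(FPKM + 0.1) and 1 (OsWRKY69) with the replicate block, where 0.317% of features were called and ICS1, Os04g0178400 and the 3 VQ genes were not (adjusted p = 0.0594 for ICS1 and 0.109 for Os04g0178400). Leaving out 1 library gave 0 to 7. The count of features called was 319, against 2486 with DESeq2, 481 and 559 with limma on log2(FPKM + 1) and log2(FPKM + 0.1), and 81 with the replicate block. Leaving out 1 library gave 0 to 724. RLE scaling, limma-voom and no filter on low counts left these counts within 1.5 times. The median log2 fold change of the tested WRKY genes ranged from -0.38 to -0.01, against a spread between libraries of 0.28. Without the library labelled WT replicate 3, 30 WRKY genes were lower without overlap, against 19 with it, an alternative chosen after seeing the data that needs fewer libraries to be passed. Deviations of same-numbered libraries correlated at 0.138, 0.246 and -0.219, and WT replicate 1 correlated best with mads61-3 replicate 3. So few correlations, of deviations centred within each group, cannot decide whether shared replicate numbers pair the samples. OsWRKY21 also missed the threshold in limma-voom (adjusted p = 0.0506). Members with fewer than about 1 CPM rest on few reads, and differences there were often not detectable at this depth.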
